A study of Homo sapiens and Mus musculus with 13 samples.

Results

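Gene expression was compared between 3 single-cell clones of a mouse HOXB8-immortalized haematopoietic progenitor line carrying an NPM1c knock-in and 2 libraries of the parental line. All genes with a mean normalized value of at least 10 over these 5 libraries were taken, 13132 of the 37991 genes listed. The 2 genes just under this minimum, Gm12870 and Gm6808, had means of 9.993 and 9.9997, and the 2 just above it, Xlr4d-ps and 1700029J07Rik, had 10.001 and 10.003.

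NPM1, nucleophosmin, is an abundant nucleolar protein that shuttles between nucleolus and cytoplasm and takes part in ribosome assembly, histone chaperoning and control of the ARF and p53 pathway. NPM1c is the leukaemia-associated form whose altered C terminus adds a nuclear export signal for the export receptor XPO1, so that the protein gathers in the cytoplasm. Enforced HOXB8 activity holds myeloid progenitors in an immature, dividing state, and in estrogen-dependent versions of the system the cells mature when the hormone is withdrawn.

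The 5 libraries belong to a series of 13, and the other 8, from the human leukaemia line OCI-AML3, are not used here. All mouse cells, clones and controls alike, were immortalized with HOXB8 and grown in RPMI with medium conditioned by stem cell factor producing cells and 1 µM beta-estradiol, and no drug was given. The knock-in was made with CRISPR/Cas9 as an NPM1c-GFP allele and 3 clones, labelled 12, 18 and 4, were grown from single cells, while the controls are labelled wild-type. The animals the line came from, and whether the controls passed through cloning, are not stated in the labels, so the knock-in and the cloning cannot be told apart. Whether the parental pair were separate cultures is not stated, so p-values measure the spread between these samples, which for the parental pair may be technical. Clone numbers below are those of the record titles. The tables deposited under titles 12, 18 and 4 carry the numbers 4, 12 and 18 in their headers, so the number attached to a clone's values is not settled, whereas membership in the knock-in group is the same under both.

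The values corresponded to 7358340 to 12235174 reads in the clones, 9728260 in parental replicate 1 and 99557475 in parental replicate 2, so 1 read was worth 1.23, 1.59 and 2.05 units in clones 12, 18 and 4, 1.55 in parental replicate 1 and 0.153 in parental replicate 2. Any 2 clones differed by a median of 0.16 to 0.22 on the log2 scale and the parental pair by 0.18. Among abundant genes the parental pair differed mostly in 1 direction. Among 5595 genes whose mean was 500 or more, 191 were over 2-fold lower in parental replicate 2 than in replicate 1 and 1 was over 2-fold higher. Over all 11125 genes with a mean of at least 50, 31 were over 4-fold lower in replicate 2 and 15 over 4-fold higher, such as Capn3 (9.32 and 109) and Casc4 (1.55 and 17.1). In those 191 genes the clone mean was a median of 0.969 times parental replicate 1 and 2.57 times parental replicate 2, and none was called between clones and parental in limma (13 were higher at an unadjusted p under 0.05, and edgeR called 0, DESeq2 7 and limma voom 5 higher). Genes picked for a wide parental spread are hard to call, so the lack of calls is in part set by the selection. Examples, chosen after their values were seen, are Cpa3, a mast cell protease (parental values 2450.2 and 386), Ctsg, a neutrophil protease (1866 and 260.3), and B2m, the light chain of MHC class I (1311 and 217). Farther apart than Cpa3 and B2m were Rpl32 (910.5 and 126.7), Rpl8 (1546 and 221.1), Rpl4 (2595 and 380) and genes without a symbol. Many members of the lists below that are among the 191 are named with their list. Others are Mcl1, Dnmt1, Pdia4, Shmt2, Lta4h, Car2, Ipo7, Nxf1, Fads2, Scd2, Egln3, Slc16a1, Cebpa, Ndufa4 and Lyl1.

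**Figure D1:**
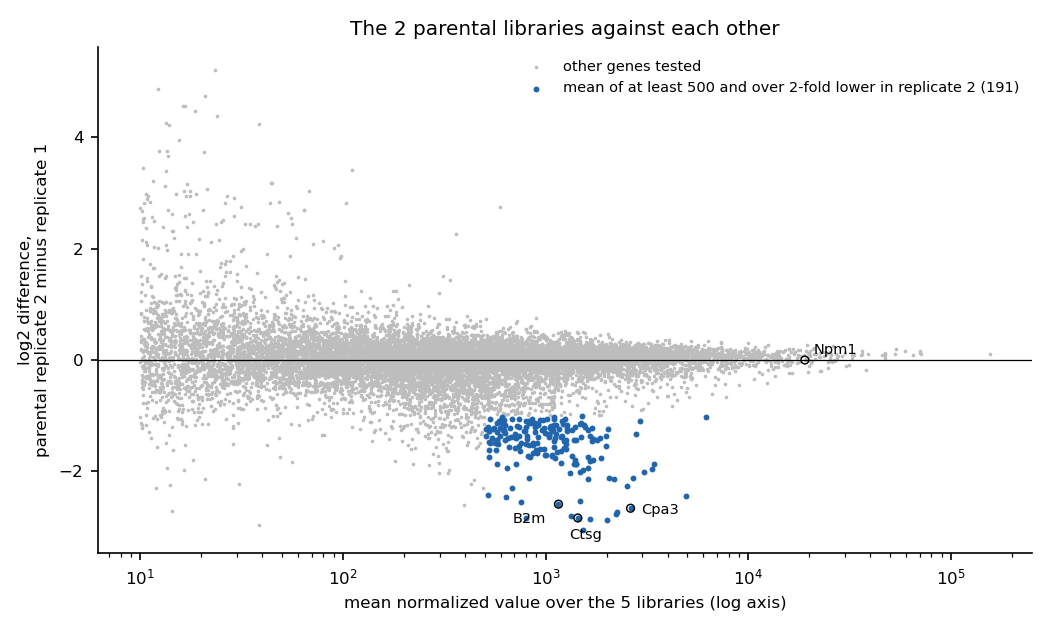
Each point is 1 of the 13132 genes tested. The x axis is the mean normalized value over the 5 libraries (log axis) and the y axis the log2 difference of parental replicate 2 minus replicate 1 on log2(value + 1). The 191 genes with a mean of at least 500 that lie over 2-fold lower in replicate 2 are in blue and form a tail on 1 side, while Npm1 lies near 0.

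Npm1 itself was lower in every clone. Values, given throughout in the order of clones 12, 18 and 4 and then of parental replicates 1 and 2, were 15141, 14144 and 14305 against 25695 and 25714, a mean of 14530.0 ± 535 (SD, n = 3) against 25705 ± 13.7 (SD, n = 2). The groups did not overlap, and the difference (log2 fold change -0.82, SE 0.07, adjusted p = 0.000533, limma) was called in all 14 alternative analyses. The values do not separate reads of the edited allele from those of the other, so they do not check the edit itself. Hoxb8, the immortalizing gene, had 5745, 6629 and 4101 in the clones and 6732 and 6080.2 in the parental libraries, and these overlapped (log2 fold change -0.25, SE 0.20, adjusted p = 0.438).

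The labelled cell type was checked against defining markers of haematopoietic progenitors, and all were present in all 5 libraries. Kit, the stem cell factor receptor, had 6720.4, 5887 and 8571 in the clones and 5736 and 5263 in the parental libraries. Cd34, a progenitor surface marker, ranged over the same span in both groups (14946, 14851 and 17793 and 17263 and 14738). Neither was called (adjusted p = 0.183 and 0.949), nor was Sfpi1, the older symbol of the gene of the myeloid factor PU.1 (adjusted p = 0.393). Myb, a progenitor transcription factor, and Ptprc, the pan-leukocyte marker CD45, were higher in the clones by 0.34 and 0.57 on the log2 scale (adjusted p = 0.0412 and 0.0432). Both of these calls were lost without clone 12 (adjusted p = 0.13 and 0.0854), without parental replicate 1 (0.075 and 0.141) and without parental replicate 2 (0.203 and 0.106), and that of Myb also without clone 4 (0.0546).

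Across all genes, 2101 of 13132 (16%) were called at a Benjamini-Hochberg adjusted p under 0.05 in limma, 986 higher in the clones (7.51%) and 1115 lower (8.49%). At least 2-fold changes among them numbered 479 higher (3.65%) and 386 lower (2.94%). In 3212 genes all 3 clones lay above both parental libraries (24.5%) and in 3385 below both (25.8%). Genes at an unadjusted p under 0.05 numbered 4087. All 2101 called genes had such groups without overlap, and 4496 genes without overlap were not called. Large changes were found in both directions: 17 called genes were at least 64-fold higher and 23 at least 64-fold lower on the log2(value + 1) scale, which understates the change of genes with few reads. The counts rested on clone 12 and on parental replicate 2 more than on the other libraries, with 1015 and 981 genes called without them. Here and below, "without" a library means that it alone was left out and the fit repeated.

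**Figure D2:**
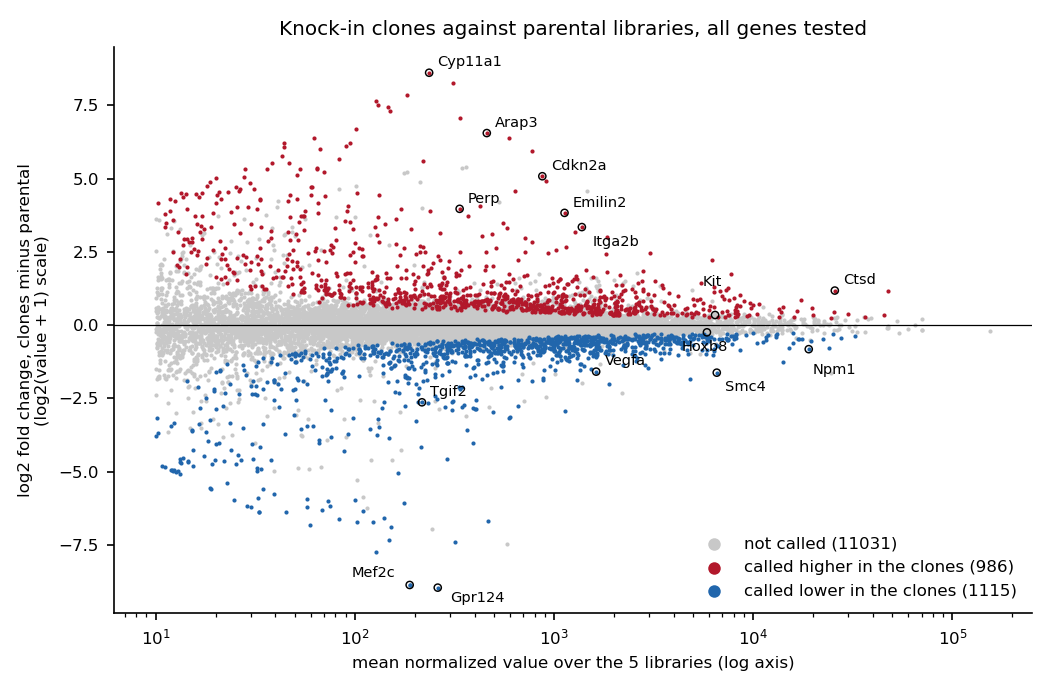
Each point is a gene tested. The x axis is the mean normalized value over the 5 libraries (log axis) and the y axis the log2 fold change of clones minus parental libraries. The 986 genes called higher are red, the 1115 called lower blue and the rest grey, and Hoxb8 and Kit lie among the uncalled genes while Npm1 and Smc4 are below the line.

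Gene lists covering lineages, growth control, metabolism and nuclear functions were then described by the number of members called, to be read against 7.51% higher and 8.49% lower over all genes. Some genes, such as Itga2b and Il5ra, are in more than 1 list, so the list counts are not all separate observations. Lists called mostly on the higher side included p53 regulators and targets, mast cell and basophil genes and lysosomal genes. Those called mostly on the lower side included mitosis, DNA replication, cholesterol synthesis, and glycolysis with hypoxia response. Where no member of a list was called in a direction, at most 3 were at an unadjusted p under 0.05 in that direction, except 5 lower stress genes, and edgeR, DESeq2 or limma voom each called at most 2.

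**Figure D3:**
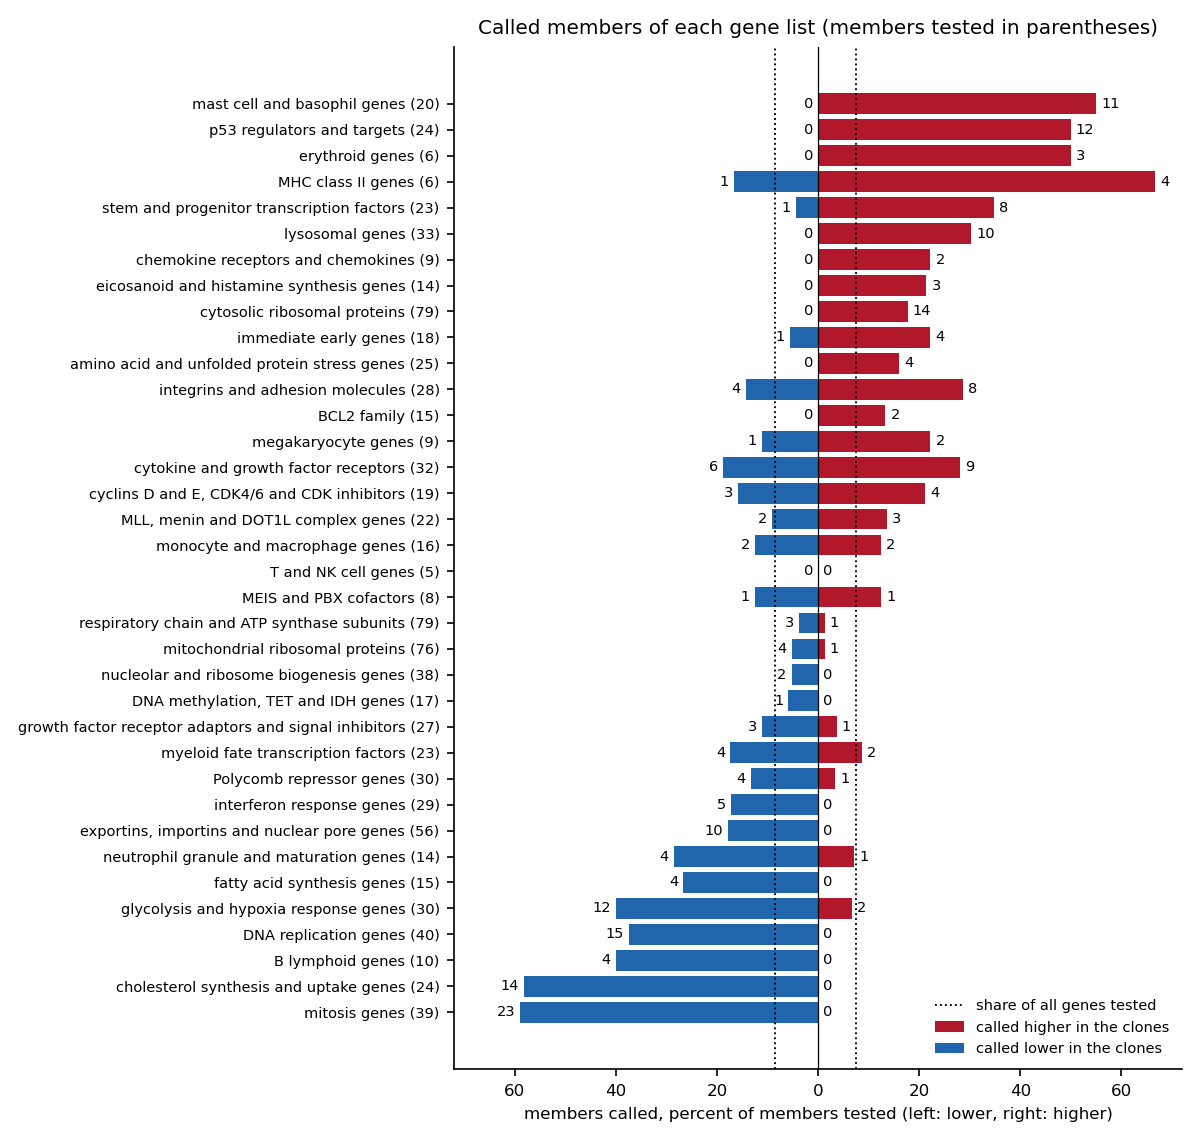
Bars give the percent of tested members of each list called higher (right) or lower (left) in the clones, with the number of members at the bar's end and the number tested in parentheses, for lists with at least 5 members tested. Dotted lines mark the shares over all genes tested, 7.51% and 8.49%. Mast cell and basophil genes (11 of 20) and p53 regulators and targets (12 of 24) extend right. Mitosis genes (23 of 39) and cholesterol genes (14 of 24) extend left.

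Growth control genes differed in both directions. Cdkn2a, which encodes an inhibitor of CDK4 and CDK6 and, from another reading frame, the MDM2 antagonist ARF, had 1460.0, 1195 and 1631 in the clones and 34.2 and 49.01 in the parental libraries. All 3 clones were far above both parental libraries, a 33.8-fold difference (log2 fold change 5.08, SE 0.21, adjusted p = 4.87e-05, limma). The values do not tell its transcripts apart. Ccnd1, cyclin D1, a partner of CDK4 and CDK6, had 241, 311 and 533 against 4.66 and 7.94, 48.2-fold higher (log2 fold change 5.59, SE 0.37, adjusted p = 0.000306). Clone 4 was the highest of the clones for Ccnd1. Rbl1, the pocket protein p107, and Cdk2 were lower, at 893, 953 and 741 against 1616 and 1540.1 and at 819.9, 875 and 843 against 1397 and 1260.1. Cdk4 itself was not called (adjusted p = 0.251). Of the 19 tested genes for D and E cyclins, their kinases and inhibitors, 4 were higher and 3 lower, with 2 higher without clone 12, 2 higher without parental replicate 2 and 5 lower without clone 18 or without clone 4.

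Of 24 tested regulators and targets of p53, the stress-activated tumour suppressor, 12 were higher in the clones (50%), none was lower, and the median log2 fold change was 0.53 against 0.01 over all genes. Trp53 itself was not called, with overlapping values of 5649, 5667 and 5014 and 5519 and 6489 (adjusted p = 0.393). Perp, which encodes a membrane protein of the p53 death response, had 547, 429.6 and 638 in the clones and 32.6 and 33.4 in the parental libraries (log2 fold change 3.97, SE 0.20, adjusted p = 0.000101, limma). Zmat3, an RNA-binding target, had 271, 111 and 261 against 6.21 and 10.99, with clone 18 the lowest clone and still above both parental libraries (log2 fold change 4.42, SE 0.44, adjusted p = 0.00146). The cell death genes Bax (1272, 1303 and 1266 against 651 and 517) and Bbc3, which encodes PUMA (298, 254 and 361 against 126 and 119), were 2.20-fold and 2.45-fold higher (adjusted p = 0.0017 and 0.00499). They were the 2 called among 15 tested genes of the BCL2 family, with none lower. Btg2, an antiproliferative target, went from 1.55 and 1.83 in the parental libraries to 43.1, 30.1 and 43.1 in the clones. Mdm2, the p53 ubiquitin ligase, chosen after its values were seen, was not called (1651, 1507 and 2203 against 1501 and 1662). The count was 7 without clone 12, and at least 8 without any other library.

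Genes that act in cell division were lower. Of 39 tested mitosis genes 23 were called lower (59%) and none higher, with a median of -0.66, and of 40 DNA replication genes 15 were lower and none higher, with a median of -0.61. Smc4, a condensin subunit that compacts mitotic chromosomes, had 3653, 3811 and 3280.3 against 11298 and 10771, 3.09-fold lower (log2 fold change -1.63, SE 0.09, adjusted p = 0.000112, limma). Ccna2, cyclin A2, had 1875, 1799 and 1422 against 4125 and 3723, and Smc2, Smc4's partner in condensin, 2728, 2907 and 2224 against 4874 and 5182. In each of the 3 genes clone 4 was the lowest clone and no clone reached a parental library. Pola1, of the polymerase that primes DNA synthesis, had 451, 498 and 361 against 946 and 916, and Orc1, of the origin recognition complex, 164, 201 and 125 against 395 and 399 (adjusted p = 0.00497 and 0.00791). These counts depended on the parental libraries: without parental replicate 1 there were 12 mitosis genes lower and 1 higher, and 8 replication genes lower and 4 higher. Without parental replicate 2 there were 14 and 7 lower and none higher, and without clone 12 7 replication genes lower. Mcm2, Mcm3, Rfc2 and Rrm1 of the replication list are among the 191 genes that were low in parental replicate 2.

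**Figure D4:**
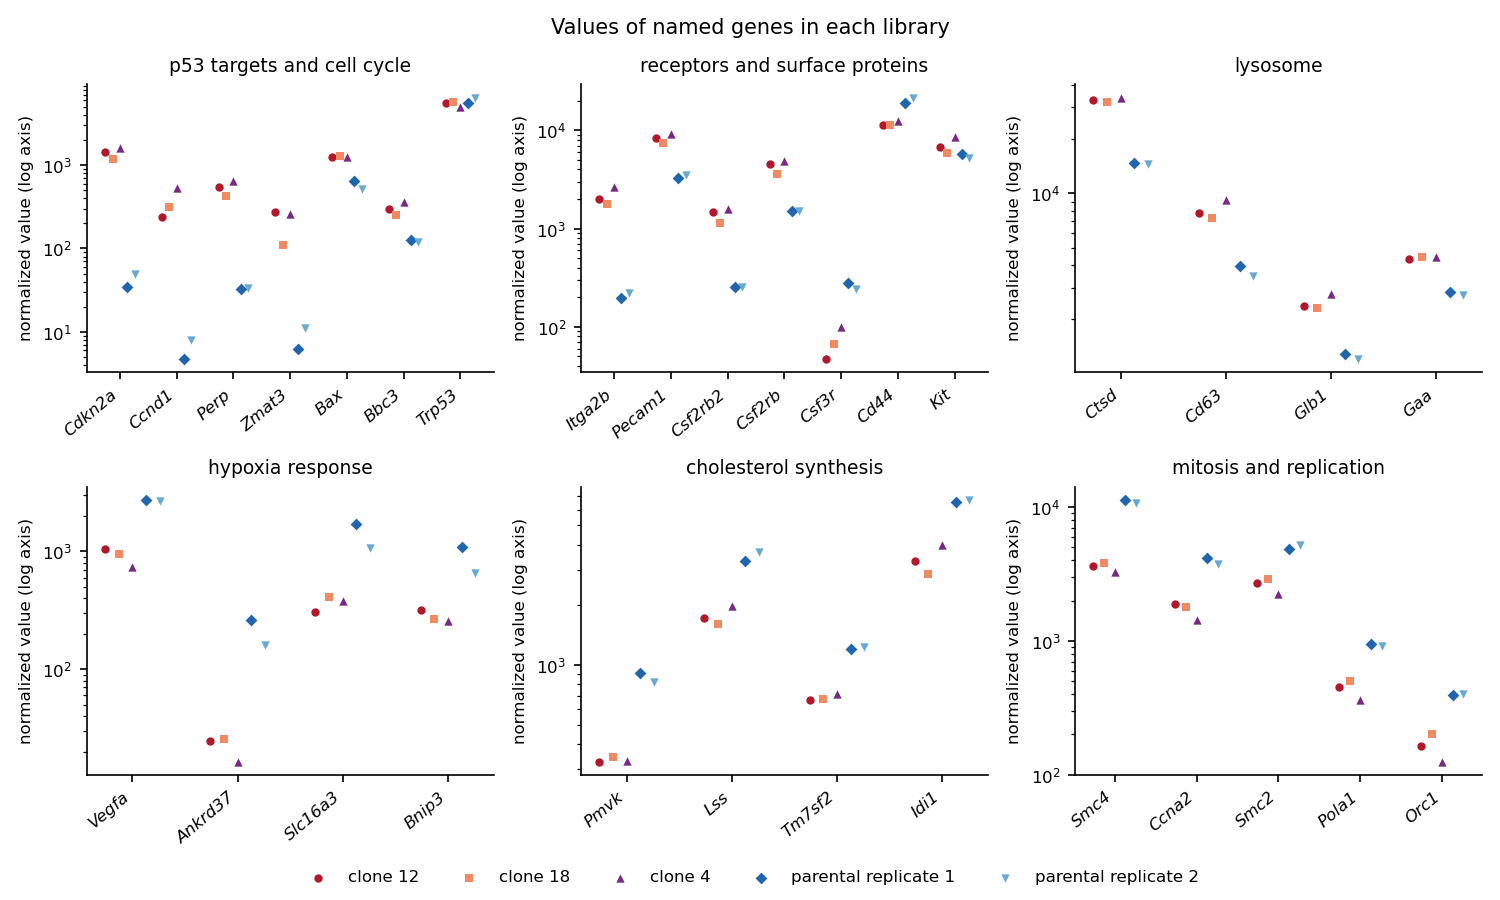
Normalized values (log axis) of named genes in each of the 5 libraries, by group of genes. Red, orange and purple symbols are clones 12, 18 and 4, and dark and light blue symbols parental replicates 1 and 2. Apart from Trp53, whose libraries overlap, each gene shown has the 3 clones on 1 side of both parental libraries, and Kit, though without overlap, was not called.

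Lysosomal genes were higher. Of 33 tested, 10 were called higher and none lower, with a median of 0.42. Ctsd, the protease cathepsin D, had 32915, 32224 and 34022 in the clones and 14742 and 14499 in the parental libraries, 2.26-fold higher with little spread in either group (log2 fold change 1.18, SE 0.06, adjusted p = 0.000112, limma). Cd63, a tetraspanin of lysosomes and secretory granules, had 7783, 7333 and 9236 against 3974 and 3459 (log2 fold change 1.12, SE 0.12, adjusted p = 0.00124). The hydrolases Glb1, beta-galactosidase (2377, 2322 and 2782 against 1277 and 1201), and Gaa, acid alpha-glucosidase (4309.9, 4438 and 4454 against 2853 and 2737), were 2.01-fold and 1.57-fold higher. These 4 calls held in all 14 alternative analyses. The list count was 6 without clone 12, 6 without clone 18 and 6 without parental replicate 2, and 16 without parental replicate 1. Ctsg, Lamp1 and Npc2 of this list are low in parental replicate 2.

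Markers of several blood lineages moved. In bulk RNA, fewer cells of a type and less RNA per cell cannot be told apart. Mast cell and basophil genes were higher: 11 of 20 tested were called and none lower. The summed level of the list was 40330 to 55870 in the clones against 25470 and 21520 in the parental libraries. Much of that sum was 1 member, Srgn (19286, 17192 and 27472 against 11715 and 11288), whose call was lost without clone 12 or without either parental replicate. Alox5, the 5-lipoxygenase that starts leukotriene synthesis, had 1721, 1447 and 652 against 21.8 and 14.96. Clone 4 was the lowest clone and still far above both parental libraries (log2 fold change 5.95, SE 0.44, adjusted p = 0.000928, limma). Some mast cell genes of the list had few reads. Fcer1a, the alpha chain of the IgE receptor (2.46, 11.1 and 0 and 0 and 0), Cma1 (4.92, 19.02 and 0 and 0 and 0) and Mcpt4 (0, 1.59 and 0 and 0 and 0), both mast cell chymases, stayed under the minimum mean. Cpa3 is among the genes low in parental replicate 2 and was not called (2748, 3139 and 4388 against 2450.2 and 386, adjusted p = 0.225). The number called was 8 to 13 when any library was left out, with 1 gene lower without clone 4. Of 3 tested eosinophil genes 2 were higher: Il5ra, the interleukin 5 receptor alpha chain (76.3, 80.8 and 73.9 against 1.55 and 3.97), and Prg3, a granule protein (25.9, 25.4 and 26.7 against 1.55 and 1.37), whereas Epx, the eosinophil peroxidase, had at most 1 read in any library.

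Neutrophil genes went mostly the other way. Of 14 tested, 4 were lower and 1 higher, and the summed level was 21770 to 35790 in the clones against 63650 and 56250 in the parental libraries. Much of that sum, and of its difference between the groups, was 1 member, Mpo, which was not called. Csf3r, the G-CSF receptor, had 46.8, 66.6 and 101 against 278 and 245 (log2 fold change -1.93, SE 0.31, adjusted p = 0.00771, limma). Mpo, the myeloperoxidase of primary granules, had 13844, 20009 and 7872 against 42873 and 38609.7. No clone reached a parental library, yet the clones were 2.54-fold apart and the difference was not called (log2 fold change -1.65, SE 0.41, adjusted p = 0.0629). Elane, neutrophil elastase, was called lower (13.5, 44.4 and 16.4 against 188 and 93.4, adjusted p = 0.024), but not without clone 12, clone 4 or parental replicate 1 (adjusted p = 0.0791, 0.111 and 0.0998). The number of neutrophil genes called lower was 2 without clone 12, 1 without parental replicate 1 and 2 without parental replicate 2, and the number higher was 3 without the former and 0 without the latter. Products of late granules such as Camp and Ltf had almost no read in any library.

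Of 16 tested monocyte and macrophage genes 2 were higher and 2 lower, and the summed levels overlapped (18430 to 30120 and 30790 and 28220). Fcgr3, a low-affinity IgG receptor also found on mast cells, had 2209, 2592 and 2960.3 against 688 and 796, and Emr1, the older symbol of the gene of the F4/80 antigen, 532, 659 and 938 against 154 and 191 (adjusted p = 0.000466 and 0.00269). F13a1, coagulation factor XIII A, was not called (10949, 14838 and 17509 against 21085 and 17837, adjusted p = 0.199). The number lower was 1 without clone 12 and 0 without either parental replicate. B lymphoid genes fell: 4 of 10 tested were lower and none higher, with 2 lower without parental replicate 2. Dntt, the terminal transferase of lymphoid progenitors, had 257, 171 and 271 against 659 and 596, and Igll1, a surrogate light chain component, 1578, 1571 and 2228 against 3835 and 3502 (adjusted p = 0.00543 and 0.00701). The B cell genes Pax5 and Ms4a1 had at most 1 read in any library. Of 5 tested T and NK cell genes none was called in limma, edgeR, DESeq2 or limma voom and none had an unadjusted p under 0.05, though 1 was higher without parental replicate 1.

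MHC class II genes were few and low but moved. Of 6 tested, 4 were higher and 1 lower, with 1 higher without clone 12 or without parental replicate 2. H2-Ab1, a beta chain, had 255, 243 and 404 against 63.7 and 45.04, clone 4 the highest (log2 fold change 2.43, SE 0.27, adjusted p = 0.00168, limma). H2-DMb1, part of the peptide editor, went the other way (22.2, 14.3 and 18.5 against 74.6 and 76.8, adjusted p = 0.00571), a call lost without parental replicate 2 (adjusted p = 0.0566). In the erythroid list 3 of 6 tested genes were higher: Spna1, the older symbol of alpha spectrin (68.9, 58.6 and 88.2 against 6.21 and 7.94), and the near-identical globin genes Hbb-b1 (61.6, 25.4 and 51.3 against 0 and 0.763) and Hbb-b2 (35.7, 19.02 and 24.6 against 0 and 0.458), between which reads may have been split. Hba-a1 and Slc4a1, which mark maturing red cells, were at 0 in all 5 libraries, and the summed erythroid level overlapped between the groups (5477 to 6397 and 7085 and 5478). Most of that sum was 1 member, Tfrc (4543, 4209 and 4811 against 5882 and 5025), which was not called. The overlap of the sums therefore does not describe the other members.

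Cytokine receptors and adhesion molecules changed in both directions. Of 32 tested receptors 9 were higher and 6 lower, with 3 lower without clone 12 and 1 without parental replicate 2. Csf2rb, the beta chain shared by the receptors of IL-3, IL-5 and GM-CSF, had 4575, 3576 and 4929.7 against 1499 and 1522, and its close copy Csf2rb2, the mouse beta chain specific to IL-3, 1466, 1137 and 1573 against 252 and 252 (adjusted p = 0.000909 and 0.000222). The 2 genes are similar enough that reads may have been shared between them. Of 28 adhesion genes 8 were higher and 4 lower, with 7 lower without clone 4 and 2 without parental replicate 1. Itga2b, integrin alpha IIb or CD41, a marker of early progenitors and megakaryocytes, had 2024, 1783 and 2675 against 196 and 223, 10.2-fold higher (log2 fold change 3.34, SE 0.18, adjusted p = 0.000112). Its partner in platelets, Itgb3, was lower (1190.4, 1408 and 1383 against 2094 and 1951, adjusted p = 0.0116), though not called without parental replicate 1 (adjusted p = 0.0509). Pecam1, the adhesion molecule CD31, had 8356, 7452 and 9159.9 against 3302 and 3493, and Cd44, the hyaluronan receptor, 11439, 11224 and 12448 against 19086 and 21577. Pecam1 was thus 2.44-fold higher and Cd44 1.74-fold lower in the clones (adjusted p = 0.000466 and 0.00135).

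Among 23 tested stem and progenitor transcription factors 8 were higher and 1 lower. Gata2, a factor of stem cells and of the mast cell lineage, had 4571, 4058 and 5293 against 1868 and 1674 (log2 fold change 1.38, SE 0.13, adjusted p = 0.000838, limma). Hlf (11289, 10183 and 13310.1 against 6723 and 6850.4) and Tal1 (3241, 2690.0 and 3492 against 1849 and 1859.6), both stem cell factors, and Mycn (731, 491 and 687 against 294 and 298), a MYC paralogue, were higher as well (adjusted p = 0.00518, 0.00744 and 0.0101). In these 4 genes clone 18 was the lowest clone and all clones were above both parental libraries. Myc did not follow (10171, 10695 and 9063 against 10062 and 10195, adjusted p = 0.875). The number called higher was 4 without clone 12 and 5 without either parental replicate. Erg, an ETS factor and the 1 gene lower (2817, 2888 and 3652 against 4359.7 and 4262, adjusted p = 0.0395), was not called without clone 12, clone 18 or either parental replicate (adjusted p from 0.103 to 0.134). Of 23 tested myeloid fate factors 2 were higher and 4 lower, the latter 2 without either parental replicate, and the former 0 without clone 12 and 1 without clone 18 or without parental replicate 2. Mef2c, a MADS-box factor of lymphoid and monocytic cells, had no read in any clone and 412 and 531 in parental replicates 1 and 2. Set against 3 reads over all clones, its fall was at least 303-fold, or at least 176-fold without clone 12. Its paralogue Mef2d was lower too (1758, 1824 and 1557 against 3045 and 3239, log2 fold change -0.88, SE 0.10, adjusted p = 0.002).

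Of 24 tested genes for cholesterol synthesis and uptake 14 were lower (58.3%) and none higher. Pmvk, phosphomevalonate kinase, had 326, 342 and 330.3 against 904 and 816 (log2 fold change -1.36, SE 0.13, adjusted p = 0.000928, limma). Lss, which closes the sterol ring (1717, 1607 and 1976 against 3326 and 3662), and Idi1, the isopentenyl diphosphate isomerase (3309, 2858 and 3969.6 against 6577 and 6716), were 1.98-fold and 1.98-fold lower. The list count was 7 without clone 12, and 9 lower and 2 higher without parental replicate 1. Insig1 is among the genes low in parental replicate 2. In fatty acid synthesis 4 of 15 genes were lower, 1 without clone 12 or without parental replicate 2, and none was higher, except that 4 were without parental replicate 1.

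Glycolysis and hypoxia response genes were lower in 12 of 30 tested and higher in 2. Vegfa, the endothelial growth factor that hypoxia induces, had 1045, 948 and 732 against 2736 and 2680.2, and no clone came near the parental libraries (log2 fold change -1.59, SE 0.15, adjusted p = 0.000928, limma). Ankrd37 (24.6, 25.4 and 16.4 against 263 and 162), the lactate exporter Slc16a3 (304, 409 and 382 against 1708 and 1066) and the mitophagy gene Bnip3 (318, 266 and 256 against 1098 and 656), all hypoxia targets, were 9.11-fold, 3.72-fold and 3.04-fold lower. For these 3 genes parental replicate 1 was well above replicate 2, and all clones were below both. Aldoa, the aldolase of glycolysis, was not called (adjusted p = 0.122). The number lower was 6 without clone 12 and 4 without parental replicate 1, with 4 higher. The number higher was 0 without clone 12, clone 18 or parental replicate 2, and 1 without clone 4.

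Among chromatin regulators, Mll1, the histone methyltransferase whose complex binds menin, was higher (2420.3, 2439.5 and 2302 against 1282 and 1214, log2 fold change 0.94, SE 0.09, adjusted p = 0.00097, limma). Mll2, another member of that family, was higher too (1618, 1414 and 1284 against 752 and 683, log2 fold change 1.00, SE 0.13, adjusted p = 0.00297). Of 22 tested genes of the MLL, menin and DOT1L complexes 3 were higher and 2 lower, with none lower without clone 12, clone 18 or parental replicate 2, and 1 lower without clone 4 or parental replicate 1. Ezh2, the Polycomb methyltransferase, was lower (3351, 2945 and 2609 against 5708 and 6342, log2 fold change -1.03, SE 0.12, adjusted p = 0.00187), as were its cofactor Jarid2 (2329, 2081 and 2367 against 3559.5 and 4167) and Phc3 of the other Polycomb complex (934, 959 and 939.6 against 1535 and 1681). Of 30 Polycomb genes 4 were lower and 1 higher, the latter 0 without clone 12, clone 18 or parental replicate 2. Of 22 listed HOXA and HOXB identifiers 2 passed the minimum, Hoxb8 and Hoxb7, neither of them called by limma, edgeR, DESeq2 or limma voom (1 of them lower at an unadjusted p under 0.05). Hoxa9, Hoxa10 and Hoxa5 were at 0 in all 5 libraries. Tgif2, a homeodomain repressor related to the MEIS cofactors, was 6.22-fold lower (65.2, 106 and 47.2 against 427 and 441, log2 fold change -2.64, SE 0.32, adjusted p = 0.00273).

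Genes for export and import through the nuclear pore were lower in 10 of 56 and higher in none, with a median of -0.17. Xpo1, the export receptor used by NPM1c, had 5791, 5340.3 and 5354 against 7262 and 8114 (log2 fold change -0.48, SE 0.09, adjusted p = 0.0107, limma), a call lost without parental replicate 2 (adjusted p = 0.0744). Cse1l, which returns importin alpha to the cytoplasm (3679.6, 3433 and 3961 against 5479.9 and 5481), and Nup107, a pore scaffold subunit (1092, 1018 and 1013 against 1644 and 1553), were 1.49-fold and 1.54-fold lower. The number lower was 3 without clone 12, 4 without parental replicate 1, where 6 were higher, and 3 without parental replicate 2. Of 38 nucleolar and ribosome biogenesis genes only Npm1 and Nop56 were called, both lower. Nop56, a snoRNP protein, was 1.27-fold lower (adjusted p = 0.0221; 0.093 without clone 12 and 0.143 without parental replicate 2), and 8 genes of the list were higher without parental replicate 1. Ddx21, Gnl3, Ncl and Nop58 of this list are low in parental replicate 2.

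Cytosolic ribosomal protein genes showed small differences: 14 of 79 were called higher and none lower, with a median of 0.22. In 51 of the 79 all clones lay above both parental libraries, which held for 24.5% of all genes tested. Rps28 had 19698, 18267 and 17772 against 12543 and 14436, 1.38-fold higher (log2 fold change 0.46, SE 0.09, adjusted p = 0.0124, limma), which was not called without clone 12 or parental replicate 1 (adjusted p = 0.0573 and 0.0603). The count was 1 without clone 12, 6 without clone 18 and 1 without parental replicate 2. Rpl32, Rpl4, Rpl8 and Rplp1 are low in parental replicate 2. Of 76 mitochondrial ribosomal protein genes 1 was higher and 4 lower, and of 79 respiratory chain genes 1 and 3, shares below those over all genes. Without parental replicate 1, 7 and 19 genes of these lists were higher, and without any other library at most 2. The numbers lower were 0 to 3 and 1 to 2 when a library was left out.

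Of 29 interferon response genes 5 were lower and none higher, among them Ifih1, the RNA sensor MDA5 (156, 228 and 172 against 437 and 467, log2 fold change -1.30, SE 0.20, adjusted p = 0.00543, limma). That count was 3 without clone 12 or clone 18, 2 without parental replicate 1, where 1 was higher, and 1 without parental replicate 2. Of 25 amino acid and unfolded protein stress genes 4 were higher and none lower, the highest in level being Calr, the chaperone calreticulin (21510.3, 22101 and 24567 against 16365 and 14025, adjusted p = 0.00701), with 2 higher without clone 12 or parental replicate 2 and 7 without parental replicate 1. Of 18 immediate early genes 4 were higher and 1 lower. Fosl1, an AP-1 subunit, had 101, 90.4 and 96.4 against 20.2 and 19.7 (log2 fold change 2.21, SE 0.22, adjusted p = 0.00111) and Jund, another, 645, 556 and 542 against 320.1 and 334. Klf4, a Kruppel-like factor and the 1 lower gene (0, 1.59 and 0 against 43.5 and 31.6), was not called without either parental replicate (adjusted p = 0.14 and 0.116).

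Further lists held few calls. Of 9 tested megakaryocyte genes 2 were higher and 1 lower (0 lower without parental replicate 1), and of 8 MEIS and PBX cofactor genes 1 and 1. Of 9 chemokine and chemokine receptor genes 2 were higher and none lower, with 4 higher without parental replicate 1, 1 without parental replicate 2 and 1 lower without clone 4. Of 27 receptor adaptors and signal inhibitors 1 was higher and 3 were lower. The latter number was 1 without clone 12 or either parental replicate and the former 0 without clone 12, clone 18 or parental replicate 2. Eicosanoid and histamine synthesis genes were higher in 3 of 14, 1 without clone 12 or parental replicate 2, and 2 were lower without clone 4. Of 4 dendritic cell genes 1 was higher and 2 lower, of 3 stromal and endothelial genes 1 and 1, and of 17 DNA methylation, TET and IDH genes 0 and 1. Those numbers lower were all 0 without clone 12 or without parental replicate 2. Without clone 18 they were 1, 0 and 2, 2 DNA methylation genes were lower without clone 4, and without parental replicate 1 there were 2 dendritic cell genes higher and 1 lower and 1 DNA methylation gene higher.

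The 8 genes with the smallest adjusted p among those called with at least a 2-fold change were Cyp11a1, Emilin2, Arap3, Cdkn2a, Chn2, Rapgef3, Samd4 and Ndst2. Arap3, which inactivates Arf proteins, had 617, 686 and 983 in the clones and 6.21 and 7.79 in the parental libraries, 93.9-fold higher (log2 fold change 6.55, SE 0.24, adjusted p = 3.22e-05, limma). Rapgef3, the cAMP-activated Rap exchange factor EPAC1, had 2647, 2923 and 2507 against 497 and 502 (log2 fold change 2.43, SE 0.11, adjusted p = 6.08e-05), and Chn2, a Rac inactivator, 318, 299.6 and 293 against 0 and 0.763 (log2 fold change 7.84, SE 0.33, adjusted p = 4.87e-05). All clones lay far above both parental libraries for each of these genes. Arap2, a relative of Arap3, went the other way, with 0, 1.59 and 8.21 against 283 and 323 (log2 fold change -6.72, SE 0.88, adjusted p = 0.00453), a fold change that read -5.96 without clone 12 and -7.56 without clone 4. Others of the 8 were Emilin2, an extracellular matrix glycoprotein (1948, 1663 and 1787 against 134 and 118), Samd4, an RNA-binding repressor of translation (758, 758 and 747 against 91.7 and 81.2), and Ndst2, an enzyme of heparin sulfation (1089, 1230.1 and 1217 against 169 and 159). Their adjusted p was 3.22e-05, 6.54e-05 and 6.54e-05.

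Some genes changed between no read and many. In 5 genes neither parental library had a read and every clone had at least 20. In 12 genes no clone had a read and both parental libraries had at least 20. Parental replicate 2 had 99557475 reads against 7358340 to 12235174 in the clones, so absence was harder to meet in the parental libraries. These counts therefore cannot be compared with each other. The first set comprised Cyp11a1, which starts steroid synthesis (351, 469 and 361 in the clones), Tpsb2, a mast cell tryptase (213, 361 and 75.9), Emx2, a homeobox gene of neural and urogenital tissue (204, 124 and 312), Serpina3g, a serine protease inhibitor (185, 31.7 and 94.4), and Gm11697 (55.4, 84.01 and 82.1). Against a floor of 3 reads over both parental libraries Emx2 was at least 513-fold higher, and at least 45.8-fold without parental replicate 2, whose depth sets this floor. The widest spread between clones in this set was in Serpina3g, lowest in clone 18, and its log2 fold change of 6.38 was 7.06 without clone 18. That of Tpsb2, 7.50, was 8.12 without clone 4, its lowest clone, and reads of Tpsb2 may be shared with its close copy Tpsab1. The 10 genes with the highest parental level in the second set were Mef2c, Grb10, Rhoj, Ston1, Reps2, Fat1, Sntb1, 4933440M02Rik, Sqrdl and Npy2r. Grb10, an imprinted adaptor that restrains insulin and KIT signalling, had 433 and 508 in the parental libraries, at least 303-fold more than in the clones, or at least 175-fold without clone 12. Rhoj, a small GTPase, had 85.5 and 80.8 (at least 53.5-fold, or 31-fold without clone 12), and Fat1, a giant cadherin, 68.4 and 75.6 (at least 46.3-fold, or 26.8-fold without clone 12). Calls of Rhoj and Fat1 were lost without either parental replicate (adjusted p from 0.0509 to 0.076).

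The 3 clones resembled each other in most of what was called. In 1883 of 2101 called genes the clones lay within 2-fold of each other, as in 647 of the 865 genes called with at least a 2-fold change. In 53 called genes they lay over 4-fold apart. Calling favours genes with a small spread among clones, so this agreement is in part set by the selection. Over all genes tested, any 2 clones were over 2-fold apart in 3.91% to 6.5%. The median SD of log2 values among clones was 0.168 in called genes and 0.164 in all. Clone 4 stood farthest from the parental mean, being the extreme clone in 479 of 986 genes called higher and 561 of 1115 called lower, against 257 and 288 for clone 12 and 250 and 325 for clone 18. Its median log2 difference was 1.03 in genes called higher and -0.87 in those called lower, with 0.96 and -0.78 in clone 12 and 0.92 and -0.74 in clone 18. Clone 4 is also the library with the fewest reads, and the part of depth in its position was not tested.

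Called genes with the largest spread among clones were mostly genes nearly silent in the clones. Zfp111 had 8.62, 0 and 0 against 151 and 184, Mtus1 1.23, 36.5 and 2.05 against 421 and 424 and Slit2, an axon guidance ligand, 0, 0 and 14.4 against 180.2 and 179. In each of them 1 clone kept some reads and the other 2 had almost none, and none overlapped the parental libraries. Zfp111 was not called without clone 4 or parental replicate 2 (adjusted p = 0.067 and 0.0625), and its log2 fold change of -6.30 was -7.39 without clone 12. Mtus1 was not called without clone 12, clone 4 or either parental replicate (adjusted p from 0.0689 to 0.193), and read -7.34 without clone 18 and -5.31 without clone 12 against -6.06 with all. Slit2 was not called without clone 12, clone 18 or either parental replicate (adjusted p from 0.0627 to 0.0985) and read -7.50 without clone 4 and -5.53 without clone 12 or clone 18, against -6.18 with all. DESeq2 did not call it (adjusted p = 0.144).

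A few genes with a mean of at least 50 set 1 clone apart, and none of these was called. Counted were genes in which 1 clone stayed within 1.5-fold of a parental library while the other 2 were at least 4-fold away on the same side, or the reverse, on the value + 1 scale. Clone 18 stood apart in 3, among them Coro2a, a coronin of the actin cytoskeleton, with 369, 2879 and 375 against 3797 and 3615. Clones 12 and 4 were far lower and clone 18 was near the parental level. Clone 12 stood apart in 2, Maged2 (275, 0 and 0 against 123 and 204) and Frzb, a secreted WNT antagonist (4.92, 219 and 20.5 against 1.55 and 4.27). Clone 4 stood apart in 8, all of them predicted genes such as Gm10800 (950.4, 1663 and 4.10 against 17.1 and 5.50) and Gm10718 (707, 1095 and 0 against 0 and 3.82), high in clones 12 and 18 and at most 4.10 in clone 4. Reads of such predicted genes may be shared among them, so the 8 are not 8 separate observations. In the reverse pattern Npepl1, an aminopeptidase, was low in clone 12 alone (183, 709 and 673 against 848 and 842). Gpnmb, a glycoprotein of macrophages and lysosomes, had 0, 0 and 593 in the clones, a level present in clone 4 and absent in both parental libraries, and Diras2, a small GTPase, was also high in clone 4 alone (54.2, 58.6 and 250.3 against 41.9 and 55.4).

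**Figure D5:**
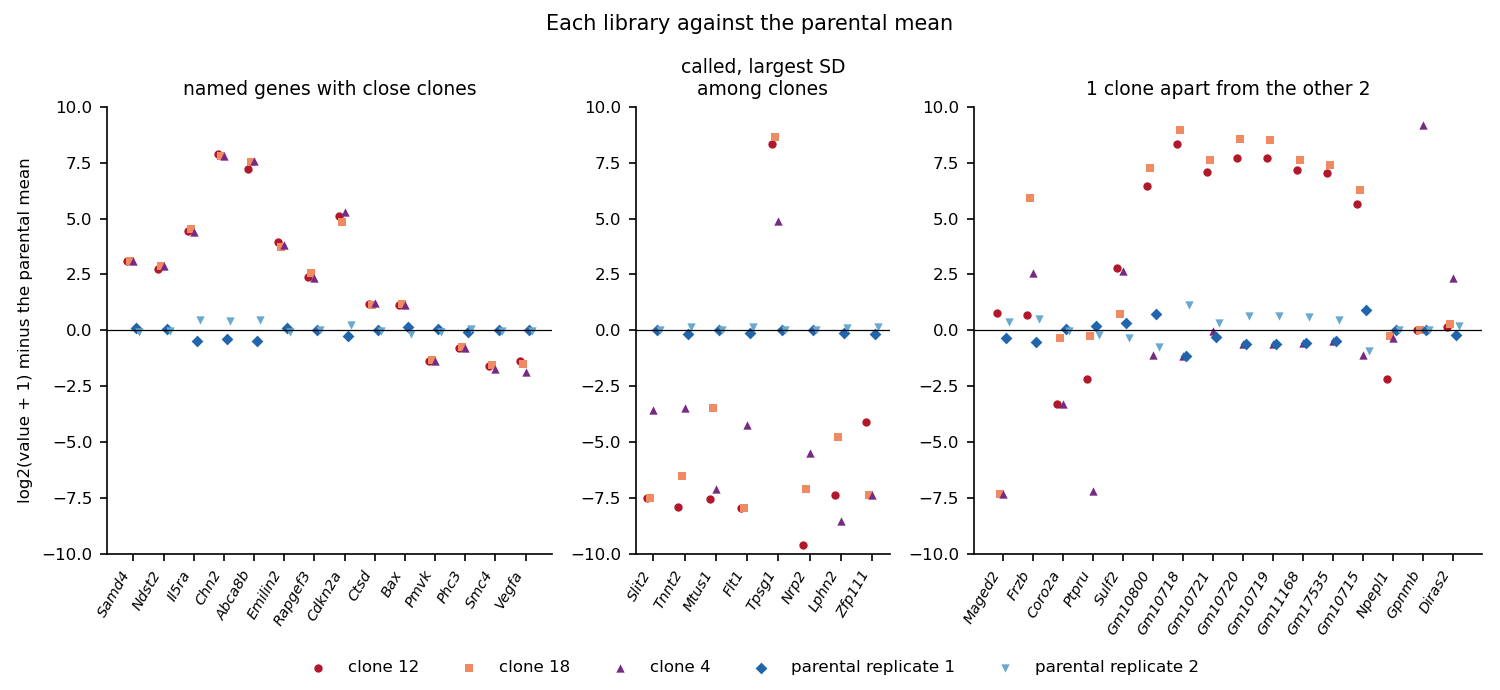
Log2(value + 1) of each library minus the parental mean, for 14 named genes with close clones (left), the 8 called genes with the largest SD among clones (middle) and the genes in which 1 clone stood apart (right). Symbols are clones 12, 18 and 4 in red, orange and purple and parental replicates 1 and 2 in dark and light blue. On the left the 3 clones lie together, and on the right Coro2a is near 0 in clone 18 and the 8 predicted genes are near 0 in clone 4.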

How the data were processed

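Total RNA came from RNeasy micro columns and mouse libraries were built with NEBNext Ultra II, per the labels' protocols, from 3 clones and 2 parental samples. The submitters' processing notes name the builds mm9 and hg19 and the tools STAR 2.6.1, DESeq2 and RSEM, without the step each served. The sources used here do not give annotation, counting settings or strand. Each mouse table holds a deposited signal value per Ensembl gene, normalized by the authors to 1 factor per library: 100% of values were whole multiples of the library's smallest step, within 0.01 read, and dividing by it gave the reads used here.

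Genes with a mean value of at least 10 were tested with limma 3.58.1 in R 4.3.3 on log2(value + 1), with trended and robust moderation, Benjamini-Hochberg adjustment over all 13132 genes and a call at adjusted p under 0.05. The step was tested on simulated data. Alternatives were a pseudocount of 5, other filters (at least 1 read, or a mean of at least 50), scaling by totals or TMM, moderation without a trend, and limma voom, edgeR 4.0.16 or DESeq2 1.42.0 on recovered reads, and leaving out each library. Fold bounds use a floor of 3 reads over a group and cover counting error only.

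The rule for named genes took Npm1, Hoxb8 and the defining markers, the 12 largest rises and 12 largest falls among called genes with a mean of at least 50, the 8 smallest adjusted p at 2-fold or more, the 8 largest SDs among clones and the 8 smallest at 4-fold or more, genes with no read in 1 group and at least 20 in every library of the other, and from each of 40 lists the 4 called members with the smallest p and the most abundant member. Not every gene it took is printed, and other genes were chosen after their values were seen. The genes studied and the lists were chosen with earlier results of these data known. Hmgcs1, Noc2l, Tfeb and Kmt2b were not analysed here. Results for a few other genes are not reported here.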

Additional observations from a re-analysis of the deposited data

How the results depend on the processing

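The number of genes called, 2101, was 1255 with moderation without a trend (644 higher, 611 lower) and ranged from 981 to 2117 when a library was left out. Genes called higher numbered 464 to 1216 on leaving out a library and genes called lower 396 to 1120, and those called with at least a 2-fold change 342 to 712 higher and 175 to 427 lower. Without parental replicate 1, 68.5% of calls were higher and without parental replicate 2 59.6%, against 46.9% with all libraries, while scaling to library totals (49.3%) or by TMM (47.5%) moved this share less, and the median over all genes moved by less than 0.1 on the log2 scale. The other counts stayed within 1.5 times the reported ones: 1422 genes called among 20236 with at least 1 read in any library, 3012 with limma voom, 2206 with edgeR and 2681 with DESeq2. Signs of uncalled genes could change, as that of Cd34 did without parental replicate 1. Of 192 named genes none had its call reversed in any setting. The largest number that lost their call was 66, without parental replicate 2, and no named gene lost it under library totals or TMM. List counts in the report are from limma with trend; without a trend 0 ribosomal protein genes, 10 mitosis genes, 8 cholesterol genes and 7 p53 genes were called. No paired analysis was possible because the clones and the parental libraries share no replicate numbers. The parental group has 2 libraries, so leaving out 1 leaves a lone library that is assumed to vary like the clones. In the clones 1 read is worth 1.23 to 2.05 units, which limits the precision of genes with low values there.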

Other observations

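3 gene families outside the lists were picked after their values were seen, so their counts are descriptions. Guanylate-binding proteins, interferon-inducible GTPases of cell defence, were lower in 7 of 9 tested members and higher in none, with a median log2 fold change of -2.64. Gbp6 had 30.8, 66.6 and 73.9 in clones 12, 18 and 4 and 915 and 875 in parental replicates 1 and 2, and Gbp4 41.9, 77.7 and 90.3 against 805 and 821 (adjusted p = 0.00118 and 0.000928, limma). Gbp3 overlapped between the groups (71.4, 119 and 30.8 against 71.5 and 63.7, adjusted p = 0.942). These genes are alike in sequence, so their reads may be shared. Of the genes called lower, Gbp11 lost its call without either parental replicate, and the others kept theirs whichever library was left out. Receptors of the leukocyte immunoglobulin-like, CD200 receptor and CD300 families were higher in 10 of 13 and lower in none, among them Lilrb4 (368, 208 and 189 against 24.9 and 14.4) and Gp49a (123, 96.7 and 77.96 against 4.66 and 1.53), which are also near copies of each other, and Cd200r3 (1508, 840.1 and 2107 against 37.3 and 52.98). Of these 10 calls 2 were lost without clone 12, 2 without clone 18 and 0 without clone 4. Pira5 lost its call without either parental replicate, and Cd200r1 and Cd300lb lost theirs without parental replicate 1.

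Replication-dependent histone genes, whose messages normally carry no poly(A) tail, differed by histone type. Of 16 tested H2A genes 15 were lower and none higher, with a median of -2.79, whereas of 16 H2B genes 6 were higher and 1 lower (median 0.89) and of 19 H1, H3 and H4 genes 1 was lower and none higher (median 0.00). Hist1h2ae, an H2A gene, had 80.02, 74.5 and 170.3 against 528 and 703 (log2 fold change -2.59, SE 0.37, adjusted p = 0.0073, limma), and clone 4 was the highest clone in it. Hist1h2bc, an H2B gene, had 124, 109 and 168 against 38.8 and 50.99 (log2 fold change 1.54, SE 0.25, adjusted p = 0.00741). The H2A genes have nearly the same sequence, so reads may have been shared and the 15 are not separate observations. Nor are the H2B genes Hist1h2br and Hist1h2bq, both called higher, whose values differed only in parental replicate 2 (122.4 and 123.5). Of the 15 H2A calls 13 were lost without parental replicate 2, 11 without clone 12, 7 without clone 18, 3 without parental replicate 1 and 0 without clone 4. Of the 6 H2B genes called higher 5 lost the call without clone 12 or without parental replicate 1, 4 without parental replicate 2, 3 without clone 18 and 1 without clone 4. The lower H2B gene, Hist2h2be, lost its call without clone 12 or either parental replicate, and the lower H3 gene, Hist2h3c1, on leaving out any library other than clone 4.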
